A study of Arabidopsis thaliana with 7 samples.

Results

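Among the genes nearest to binding sites of the Arabidopsis clock factor CCA1, 51 of 1760 encode transporters, channels or carriers. They were chosen by the description that the deposited annotation gives the nearest gene, which had to contain transporter, transporting, channel, aquaporin, antiporter, exchanger or carrier. Acyl carrier proteins were dropped. In continuous light (LL) 33 of them had a peak, of 1306 genes in all, and in light-dark cycles (LD) 46 did, of 1455 genes in all. These genes took 36 of 1433 LL peaks and 48 of 1607 LD peaks. The peak lists were made by chromatin immunoprecipitation and sequencing (ChIP-seq) of CCA1 tagged with green fluorescent protein (GFP) under the CCA1 promoter, in whole seedlings of the WS-2 ecotype. Seedlings 14 days old, raised under 12 h of light alternating with 12 h of darkness, were collected at zeitgeber time (ZT) 2, that is 2 h after dawn or subjective dawn, either after transfer to constant light (LL, 3 libraries) or still in the cycles (LD, 2 libraries). Both groups carry the same tagged transgene, and the sources used here do not give the allele of the native CCA1 gene. A ZT14 library from LL and an input DNA library labelled LL were not analysed here.

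CCA1 belongs to the core of the circadian clock in plants, binds DNA through a MYB-type domain, accumulates around dawn and is known mainly as a repressor of genes that peak later in the day. Transporters and channels move water, ions, nutrients and metabolites across the membranes of the cell, and many of them are known to follow a daily rhythm in seedlings. Sugar export, nitrate uptake and leaf water flow are examples of processes that vary over the day. RNA was not measured in these libraries, so the values below describe where CCA1-GFP was found and how many sequence tags were there.

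Each regime is represented by 1 list made from its pooled libraries, so the values have no spread between libraries and no test of a difference between regimes was made. LL peaks were 158 bp wide with 17 to 229 tags, and LD peaks were 124 bp wide with 31 to 234 tags. Peaks at the transporter genes held 18 to 200 tags in LL and 32 to 214 tags in LD. In the authors' normalised signal 1 tag counts 7.48 in LL and 3.44 in LD, so raw tags of LL and LD are not on a common scale. The regimes are compared further on by normalised tags. The peak caller's score runs higher in LD, with a median of 26 in LL and 48 in LD, so the score of a peak is given with its percentile, the percent of the same list's peaks at or below it. By this measure the transporter genes lay in the middle of the lists. Their median score was 27 in LL, against 26 over all LL peaks, and 48.5 in LD, against 48 over all LD peaks. Peak positions are in TAIR10 coordinates, and the intervals given for tags and shares cover counting error only.

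**Figure D1:**
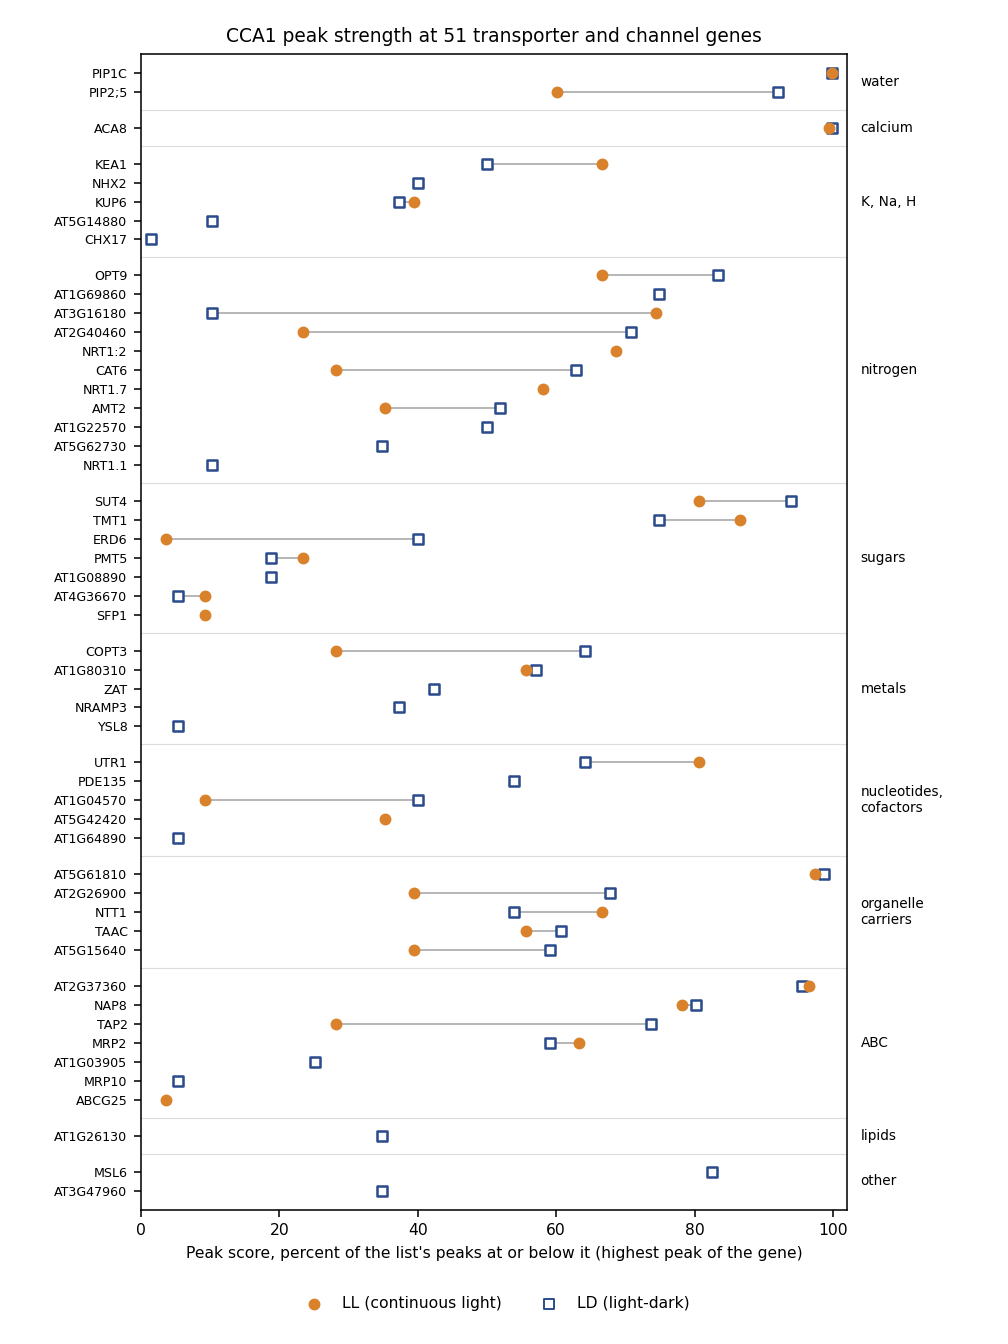
The plot shows the highest peak of each of the 51 genes as the percent of its list's peaks at or below its score, with LL as filled circles and LD as open squares, grouped by what the protein moves. PIP1C, ACA8, AT5G61810 and AT2G37360 lie above 95 in both regimes. MSL6, at 82.5, is the highest of the genes seen in a single regime.

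Counted by gene, 28 of the 51 (54.9%) had a peak in both lists, 5 (9.80%) in LL alone and 18 (35.3%) in LD alone. Over all 1760 nearest genes, 56.9% had a peak in both lists, 17.3% in LL alone and 25.8% in LD alone. The groups described below hold 11 genes or fewer, so their counts are descriptions to be set beside these shares. Counted by peak, 29 of 36 LL peaks at these genes (80.6%, with a 95% Wilson interval of 65.0 to 90.2%) coincided with a peak of LD, and 29 of 48 LD peaks (60.4%, 46.3 to 73.0%) with a peak of LL. Over all peaks these shares were 74.6% in LL and 66.5% in LD. The shares at transporter genes were near those of the lists, with intervals that include them.

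The strongest sites of the set lay at a water channel and a calcium pump. PIP1C, also called PIP1;3, is an aquaporin of the plasma membrane and carried 2 peaks in each list, both inside the gene. The peak in exon 2 of 4 (LL position chr1:226414-226572) scored 155 in LL and 217 in LD, and was the third highest peak of each list. It held 200 tags in LL (Poisson interval 173 to 230) and 214 in LD (186 to 245). The peak in exon 1 (LL position chr1:226957-227115) held 137 tags in LL (115 to 162) and 170 in LD (145 to 198), and ranked 14 in LL and 17 in LD. The peak centres lay 809 and 266 bp downstream of the transcription start site (TSS) in LL, and 739 and 267 bp downstream in LD. These were the peaks of the set with the highest GC content, at 47.3 and 45.3% in LL and 45.3% at both LD peaks, against a median of 32.7% over the LL list and 33.3% over the LD list. Scaled control tags there were 3.6 and 3.8 in LL and 5.5 and 6.8 in LD, against list medians of 2.1 in LL and 3.2 in LD. The authors' fold over control was 55.2 and 35.9 in LL and 38.7 and 24.97 in LD, against list medians of 13.6 in LL and 14.8 in LD. The part of GC content and of the control signal in these peaks was not tested.

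The other aquaporin of the set, PIP2;5, also of the plasma membrane, had a single peak. It lay in the 3′ UTR, in exon 4 of 4, 1838 bp downstream of the TSS in LL and 1851 bp in LD. It held 30 tags in LL (20.2 to 42.8) and 98 in LD (79.6 to 119), which put it at the 60.1 percentile of the LL list and the 92.0 percentile of the LD list. Neither aquaporin had a peak in its promoter.

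ACA8, a calmodulin-regulated pump that exports calcium across the plasma membrane, was the only gene of the calcium group. Its main peak lay in intron 1 of 34 (LL position chr5:23117002-23117160), 463 bp downstream of the TSS in LL and 426 bp in LD. It held 160 tags in LL (136 to 187) and 192 in LD (166 to 221), with rank 9 in LL and rank 4 in LD. A further peak of 24 tags lay 2804 bp upstream in LL, and the nearest LD peak to it was 1861 bp away.

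Each of the 5 genes for carriers of mitochondria and chloroplasts had a peak in both lists, against 56.9% of all 1760 nearest genes. The group is small and was put together with the scores already seen. AT5G61810, annotated as an ATP-Mg/Pi transporter, a kind of carrier that exchanges adenine nucleotides and phosphate across the inner mitochondrial membrane, had 95 tags in LL (76.9 to 116) and 156 in LD (132 to 182). Its peak lay 35 bp upstream of the TSS in LL and 51 bp upstream in LD, and ranked 38 in LL and 22 in LD. NTT1, which imports ATP into plastids, scored 31 in LL and 49 in LD. TAAC, the ADP/ATP carrier of the thylakoid, scored 27 in LL and 53 in LD. AT2G26900, the sodium/pyruvate cotransporter BASS2 of the chloroplast envelope, scored 23 in LL and 58 in LD. AT5G15640, described only as a mitochondrial substrate carrier, scored 23 in LL and 52 in LD. Except for NTT1, whose peak lay 1408 bp upstream in LL and 1437 bp upstream in LD, these peaks were in the promoter-TSS category. The NTT1 peaks were annotated to the 3′ end of another gene, AT1G80290.

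Nitrogen transporters were the largest group, with 11 genes, of which 7 had an LL peak, 9 had an LD peak and 5 had both. AT3G16180, nitrate transporter 1.12, had 35 tags in LL (24.4 to 48.7) and 33 in LD (22.7 to 46.3), at the 74.5 percentile of the LL list and the 10.3 percentile of the LD list. OPT9, of the oligopeptide transporter family, scored 31 in LL and 76 in LD, from a site 3958 bp upstream in LL and 3951 bp in LD. AMT2, an ammonium transporter, scored 22 in LL and 48 in LD close to its TSS. AT2G40460, a putative peptide/nitrate transporter, scored 20 in LL and 61 in LD. CAT6, a cationic amino acid transporter, carried 2 peaks in each list, all inside the gene. Its LL peaks scored 20 and 21 and its LD peaks 35 and 54, and 1 pair of them overlapped, in intron 3. NRT1.1, a nitrate transporter that is also known as a nitrate sensor, had an LD peak alone, with 33 tags in its last intron, 2950 bp downstream of the TSS.

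A run of neighbouring nitrate transporter genes on chromosome 1 showed how the assignment to the nearest gene can split a site. The LL peak chr1:26304969-26305127 was assigned to NRT1:2, 4576 bp upstream of its TSS, and the LD peak chr1:26304993-26305117 to AT1G69860, 4573 bp upstream of its TSS. The peaks overlapped, with centres 7 bp apart, and held 32 tags in LL (239.5 normalised) and 63 in LD (216.9 normalised). NRT1:2 was thereby counted in LL alone and AT1G69860 in LD alone, although the site was shared. NRT1.7, which is known to load nitrate into the phloem of older leaves, lies next to AT1G69860. It had an LL peak of 32 tags 1902 bp upstream of its TSS, and the nearest LD peak was 9070 bp away.

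Sugar and sugar alcohol transporters numbered 7, of which 6 had an LL peak and 6 an LD peak. SUT4, a sucrose transporter of the vacuole membrane, scored 40 in LL and 109 in LD, at a site annotated to the 3′ end of the gene, 3734 bp downstream of the TSS in both. It held 43 tags in LL (31.1 to 57.9) and 109 in LD (89.5 to 131). TMT1, which takes monosaccharides into the vacuole, scored 48 in LL and 65 in LD in its promoter, with 49 tags in LL and 64 in LD. The polyol transporters PMT5 and AT4G36670 lay low in the lists, with scores of 20 and 18 in LL and 36 and 33 in LD.

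The ERD6 family of sugar transporters appeared at several sites. ERD6 scored 17 in LL and 43 in LD, but its peaks did not overlap and their centres were 451 bp apart. Both were annotated to the 3′ end of ESL1, a relative of ERD6 that lies close to it. SFP1, sugar transporter ERD6-like 17, had an LL peak alone, with a score of 18. AT1G08890, ERD6-like 1, had an LD peak alone, with a score of 36 and 70 bp upstream of the TSS.

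Of 5 genes for potassium, sodium and protons, 2 had an LL peak and 5 an LD peak. Of all 1760 nearest genes, 1306 had an LL peak and 1455 an LD peak. KEA1, a potassium/proton antiporter of the chloroplast envelope, scored 31 in LL and 47 in LD, 261 bp upstream of the TSS in LL and 259 bp in LD. KUP6, a potassium uptake transporter, scored 23 in LL and 42 in LD within intron 3 of 5. NHX2, an exchanger of the vacuole membrane, AT5G14880 (potassium transporter 8) and CHX17 had an LD peak alone, with scores of 43, 34 and 32.

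Metal transporters showed the same counts, with 2 of 5 genes in LL and 5 of 5 in LD, against the same totals over all nearest genes. COPT3, a copper transporter, scored 21 in LL and 55 in LD. AT1G80310, molybdate transporter 2, scored 27 in LL and 51 in LD, at a site 197 bp downstream of its TSS that is annotated to the 3′ end of NTT1. ZAT, which loads zinc into the vacuole, NRAMP3, which releases metals from the vacuole, and YSL8 had an LD peak alone, with scores of 44, 42 and 33.

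Of 5 genes for nucleotides, nucleotide sugars and cofactors, 3 had an LL peak and 4 an LD peak. UTR1, a UDP-galactose transporter, scored 40 in LL and 55 in LD, 723 bp upstream of the TSS in LL and 737 bp in LD. The folate-biopterin transporter gene AT1G04570 scored 18 in LL and 43 in LD. AT5G42420, a nucleotide-sugar transporter, had an LL peak alone with a score of 22. PDE135, nucleobase-ascorbate transporter 3, and AT1G64890 had an LD peak alone, with scores of 49 and 33. The AT1G64890 peak was annotated to the 3′ end of AT1G64880.

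ATP-binding cassette (ABC) transporters numbered 7, of which 5 had an LL peak and 6 an LD peak. AT2G37360, ABC transporter G family member 2, had the strongest peak of the set within a promoter after that of AT5G61810, with 89 tags in LL (71.5 to 110) and 117 in LD (96.8 to 140), 567 bp upstream of the TSS in LL and 566 bp in LD. MRP2, an ABCC transporter of the vacuole membrane, scored 30 in LL and 52 in LD. TAP2 scored 21 in LL and 64 in LD, 4461 bp downstream of the TSS in LL and 4389 bp in LD. NAP8 scored 38 in LL and 71 in LD, from a site that is annotated to the 3′ end of CBF2, a gene for a cold-response transcription factor. ABCG25, known as an exporter of abscisic acid, shared the lowest LL score of the set, 17, with ERD6, and its peak lay inside intron 2 of 3 and in LL alone. AT1G03905 and MRP10 had an LD peak alone, with scores of 38 and 33. The MRP10 peak was annotated to the 3′ end of AT3G62710.

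The remaining genes had an LD peak alone. MSL6, of the mechanosensitive channel family, had the highest score of the genes seen in a single list, 74, with 73 tags (57.2 to 91.8) 919 bp upstream of its TSS, and the nearest LL peak was 5984 bp away. AT3G47960, glucosinolate transporter 1, and AT1G26130, a putative phospholipid-transporting ATPase, each scored 41.

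The 5 genes seen in LL alone had scores of 17 to 32 with a median percentile of 35.3 in their list, and the 18 seen in LD alone had scores of 32 to 74 with a median percentile of 34.8. Above the middle of their list lay NRT1:2 at 68.7 and NRT1.7 at 58.1 in LL, and MSL6 at 82.5, AT1G69860 at 74.9 and PDE135 at 54.0 in LD. The 28 genes in both lists had a median percentile of 57.9 in LL and 63.5 in LD. After MSL6 and AT1G69860, the highest LD scores among genes of LD alone were 49 at PDE135, 47 at AT1G22570, 44 at ZAT and 43 at NHX2. Except for the site of AT1G69860, the nearest LL peak lay 3027 to 215051 bp from the peaks of the LD-alone genes. Of LD peaks above the list's median score, 22 of 24 at transporter genes (91.7%) and 88.2% of all LD peaks overlapped an LL peak. At or below it, 7 of 24 at transporter genes (29.2%) and 46.3% of all LD peaks did. In LL these shares were 18 of 19 (94.7%) against 92.5% of all LL peaks above the median, and 11 of 17 (64.7%) against 57.9% at or below it.

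The place of the peaks within and around the genes was taken from the authors' categories. The promoter-TSS category held 15 of 36 LL peaks (41.7%, 27.1 to 57.8%), against 59.4% of all LL peaks, and 22 of 48 LD peaks (45.8%, 32.6 to 59.7%), against 59.0% of all LD peaks. Exons, introns and UTRs held 8 of 36 LL peaks (22.2%, 11.7 to 38.1%), against 6.84% of all LL peaks, and 10 of 48 LD peaks (20.8%, 11.7 to 34.3%), against 7.65% of all LD peaks. These peaks belonged to PIP1C, PIP2;5, ACA8, CAT6 and KUP6 in both lists, to ABCG25 in LL alone, and to NRT1.1, CHX17 and PDE135 in LD alone. PIP1C and CAT6 gave 2 peaks each per list, so the peaks are not independent. No test was made of these differences.

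**Figure D2:**
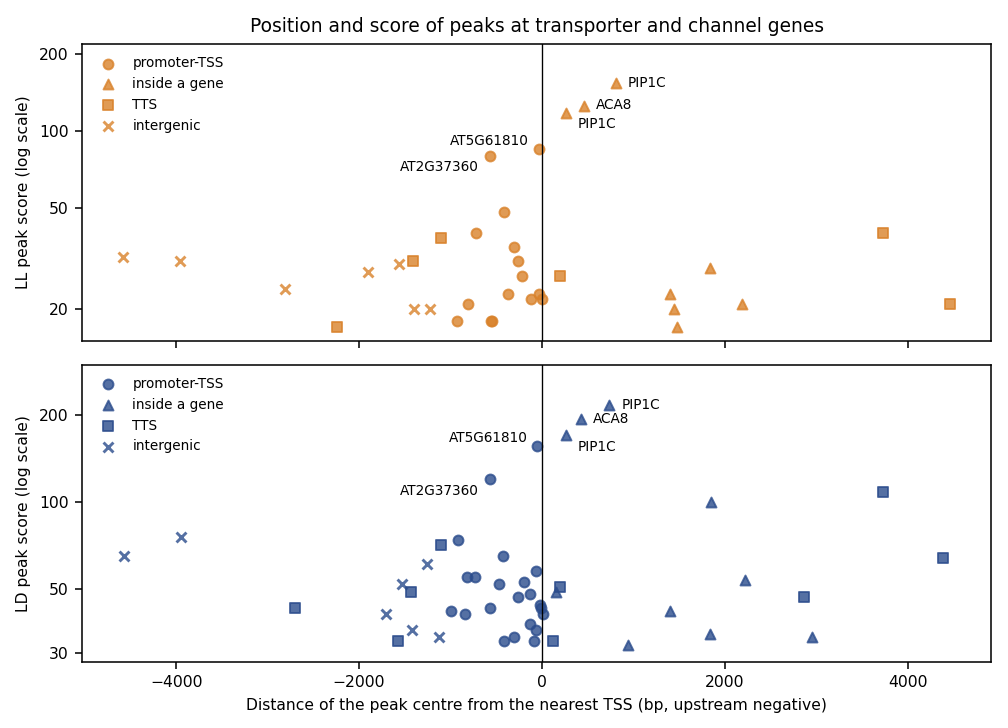
Each point is a peak at a transporter or channel gene, placed by the distance of its centre from the nearest TSS in bp and by its score on a log scale, with LL above and LD below and the marker giving the genomic category. The 3 highest points in each regime, PIP1C with 2 peaks and ACA8, lie downstream of the TSS inside the gene.

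**Figure D3:**
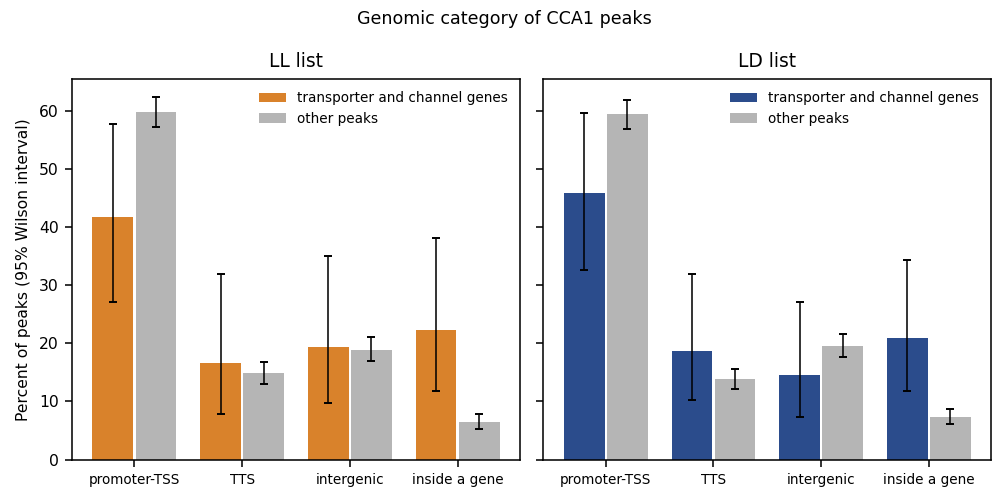
Bars give the percent of peaks in each category, with 95% Wilson intervals, for transporter and channel genes on the left of each pair and the other peaks of the same list on the right. Inside genes the bars read 22.2% in LL and 20.8% in LD for the transporter genes, against 6.44% and 7.25% for the other peaks of LL and LD.

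By distance, 19 of 36 LL peaks (52.8%) and 29 of 48 LD peaks (60.4%) lay within 1000 bp of the nearest TSS, against 64.1% of all LL peaks and 64.0% of all LD peaks. The median absolute distance was 869 bp in LL, against 566 bp over the LL list, and 776.5 bp in LD, against 538 bp over the LD list. Peaks beyond 2000 bp made up 7 of 36 in LL (19.4%) and 8 of 48 in LD (16.7%), against 17.5% of all LL peaks and 16.9% of all LD peaks. They include SUT4, TAP2, OPT9, CAT6, ERD6 and the shared nitrate transporter site, so for these genes the word near covers several kilobases. The annotation column named a gene other than the nearest at 4 of 29 LL peaks (13.8%) and 6 of 41 LD peaks (14.6%) that name one, against 17.0% of all LL peaks and 16.2% of all LD peaks that do. Among them were the sites annotated to ESL1, NTT1, AT1G80290 and CBF2. In the 28 genes with peaks in both lists, the highest peaks of LL and LD lay within 100 bp of each other at 26.

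**Figure D4:**
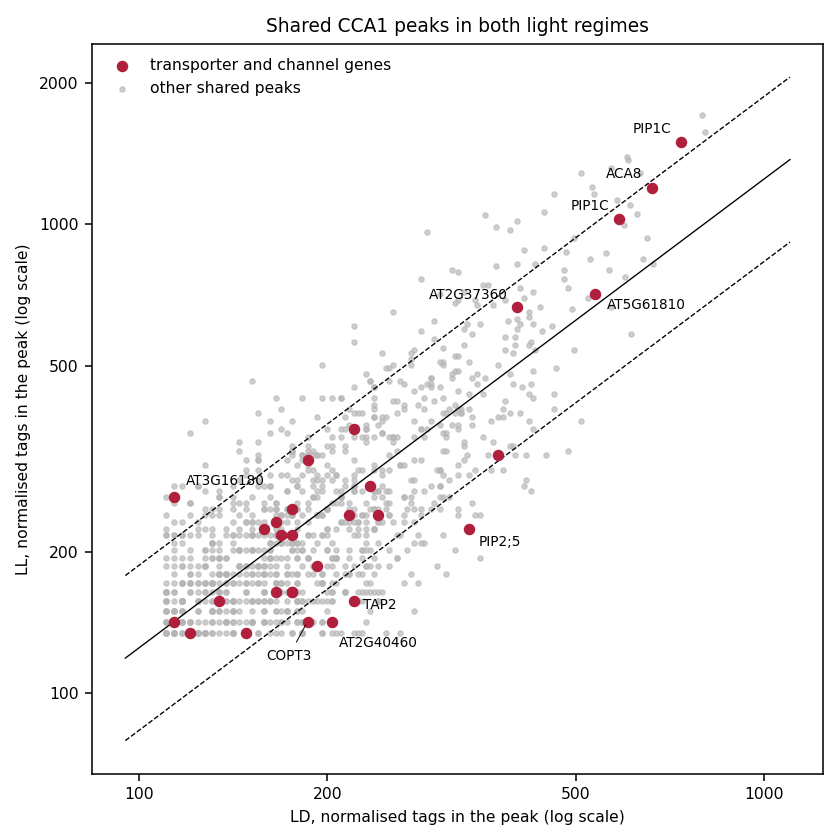
Normalised tags of each shared peak are plotted on log scales, LL on the vertical and LD on the horizontal axis, with transporter and channel genes in red and the other shared peaks in grey. The solid line is the median ratio of all shared peaks and the dashed lines are 1.5 times above and below it. PIP2;5 lies below the lower line and the exon 2 peak of PIP1C above the upper one.

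Strength in the 2 regimes was compared at the 29 overlapping pairs of peaks, as the LL over LD ratio of the authors' normalised tags divided by its median over all 1069 shared peaks, 1.25. On average, the division by the median also takes up the difference in peak width between the lists. The median relative ratio at transporter genes was 0.946. Relative ratios of at least 1.5 were found at 2 of the 29 pairs (6.90%), against 10.6% of all shared peaks, and ratios of at most 1/1.5 at 4 pairs (13.8%), against 9.92% of all shared peaks. These shares are near the background, and they describe 1 pooled list against another.

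The highest relative ratio, 1.84 (counting interval 1.11 to 3.06), was that of AT3G16180, from 262 normalised tags in LL and 114 in LD. Its 33 LD tags are close to the minimum of 31 in that list. The exon 2 peak of PIP1C followed with 1.62 (1.33 to 1.98), from 1497 normalised tags in LL and 737 in LD, and its exon 1 peak had 1.40 (1.11 to 1.76). ACA8 had 1.45 (1.17 to 1.796), from 1198 normalised tags in LL and 661 in LD. UTR1 with 1.35 and TMT1 with 1.33 had intervals that include 1. With peak scores in place of tags, the relative ratio at the exon 2 peak of PIP1C was 1.31, no longer past 1.5, and at ACA8 1.19.

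The lowest relative ratio, 0.53 (0.34 to 0.81), was that of PIP2;5, from 225 normalised tags in LL and 337 in LD. AT2G40460 had 0.56 (0.32 to 0.95), TAP2 0.57 (0.33 to 0.95), COPT3 0.61 (0.34 to 1.05), SUT4 0.69 (0.47 to 0.98) and AT1G04570 0.73 (0.40 to 1.29). LL tags were 19 at AT2G40460, 21 at TAP2, 19 at COPT3 and 18 at AT1G04570, close to the minimum of 17 in the LL list. With peak scores in place of tags COPT3 had 0.70, no longer past 1/1.5. The counting interval of PIP2;5 did not overlap those of the PIP1C peaks, but these pairs were named for their extreme ratios. Counting intervals hold no spread between libraries, so a difference between the aquaporins was not tested. The interval excluded 1 at 8 of the 29 pairs and at 187 of all 1069 shared peaks. Intervals are narrower where tags are many, as at both PIP1C peaks and ACA8, so these counts depend on peak strength. Their difference was not tested.

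**Figure D5:**
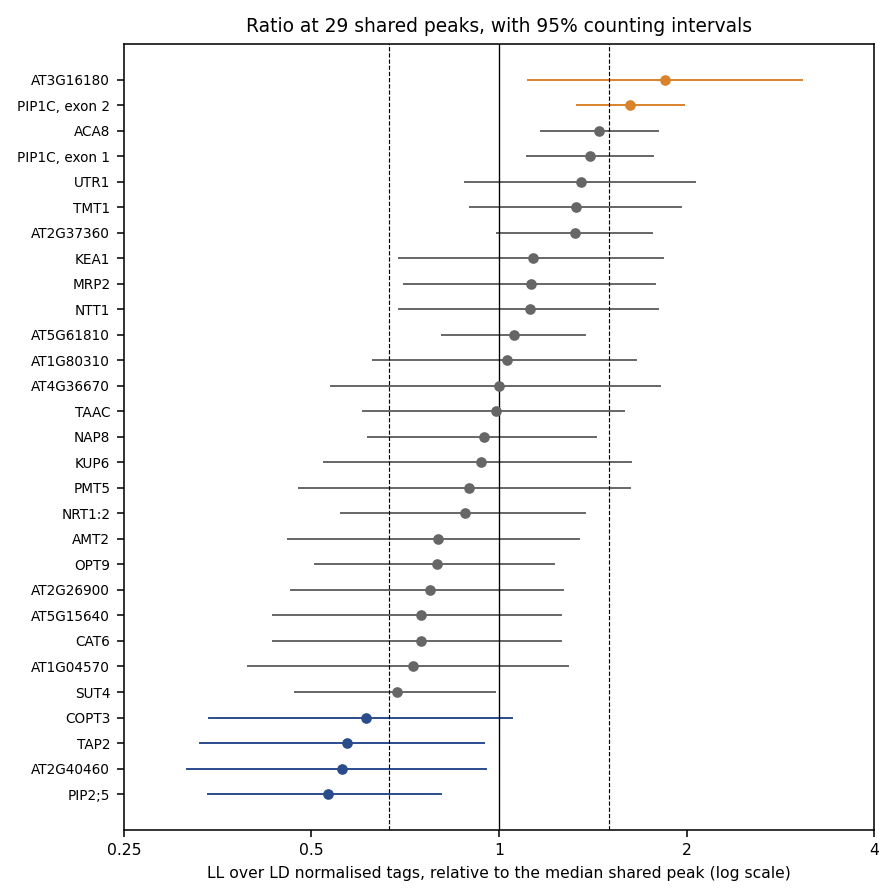
Points give the LL over LD ratio of normalised tags at each of the 29 shared peaks, relative to the median shared peak and on a log scale, with 95% counting intervals as lines. Dashed lines mark 1.5 and 1/1.5. Orange points (AT3G16180 and PIP1C exon 2) lie past the upper line and blue points (COPT3, TAP2, AT2G40460 and PIP2;5) past the lower one.

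The ratio was also set against peak strength over all shared peaks. When the 1069 pairs were ordered by their mean log normalised tags and cut into 4 classes, the median relative ratio was 0.961, 0.936, 0.989 and 1.195 from the weakest class to the strongest, so it was highest in the strongest class but did not increase at each step. The 7 transporter pairs of the strongest class (both PIP1C peaks, ACA8, AT5G61810, AT2G37360, TMT1 and SUT4) had a median of 1.33, and SUT4 alone of them lay below 1. The ratios of PIP1C and ACA8 stand in a class where 22.1% of all pairs reached 1.5. Among these ratios, only that of the PIP1C exon 2 peak did. PIP2;5 was in the next class, in which 11.2% of all pairs lay at or below 1/1.5. AT2G40460 and TAP2 were in the class below that, where 17.6% did, and COPT3 was in the weakest, where 5.97% did. In the weakest class 2.61% of all pairs reached 1.5. The minimum of tags in each list bounds the ratios there, so its shares are not on a like basis with those of the other classes.

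Among known transporter families, listed from gene symbols in a RefSeq gene table, most genes had no peak. Of 411 genes in 25 families, 19 had an LL peak (4.62%) and 23 an LD peak (5.596%). Over 37887 nuclear genes the shares were 3.38% in LL and 3.77% in LD. That total was not limited to genes that encode proteins, as the family genes do, so the shares are not on a like basis. Whether the families differ from other protein-coding genes was not tested. The plasma membrane aquaporins (PIP) had 2 of 13 genes with a peak, both named above. The KUP and HAK potassium transporters had 2 of 12 in LL and 3 of 12 in LD. The NRT1 and NRT2 nitrate transporters, as listed, had 3 of 17 in LL and 2 of 17 in LD. The putative or probable peptide/nitrate transporter genes AT1G22570, AT1G69860, AT2G40460 and AT5G62730, each with an LD peak, are not in that list. No peak was assigned to the tonoplast (TIP) aquaporins (10 genes), the NIP and SIP aquaporins (12), the Shaker and other potassium channels (15), the CAX exchangers (9), the CNGC channels (20), the AHA proton pumps (11), the SWEET sugar exporters (17), the PHT1 and PHO1 phosphate transporters (12), the SULTR sulfate transporters (12) or the PIN and AUX auxin carriers (12). Against 3.38% and 3.77% of all nuclear genes in LL and LD, a count of 0 in a family of this size is no result about that family. Family genes with a peak whose description holds none of the search words were GLR3.5, KUP9, AAP5, SUC2, MSS1 and SLAH2. Of these SLAH2, an anion channel, scored 41 in LL and 91 in LD, and MSS1, a monosaccharide transporter, 31 in LL and 72 in LD.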

How the data were processed

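Peak lists of CCA1-GFP ChIP-seq were analysed for LL (3 libraries) and LD (2 libraries), pooled by the authors. Per the labels' protocols, seedlings were fixed in 1% formaldehyde for 20 min, and anti-GFP was used for precipitation with IgG and input as controls. The tools named in the submitters' processing notes are HOMER 4.7, Bowtie2 2.2.1, Trimmomatic 0.33 and CASAVA 1.8, with TAIR10 as the genome. Per the file headers, peaks passed an irreproducible discovery rate step on combined data. The sources used here give neither the threshold of that step nor the control library of each list. For each peak the deposited files hold the count of tags, the same as a normalised signal (1 constant per list, 7.48 in LL and 3.44 in LD), control tags, HOMER's score, the fold ratio to control with its p-value, and, over 500 bp, the fraction of G and C. Scores and folds of peaks are the authors' values. No per-sample column was left unused.

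From these, overlaps (at least 1 bp, end bases included, a choice made after both totals were seen), ratios to the highest-scoring overlapping peak, exact Poisson intervals for tags, exact conditional binomial intervals for tag ratios and Wilson intervals for shares (95%) were computed with Python 3.11.15, pandas 2.3.3 and scipy 1.17.1, and the pairing and ratio steps were tested on simulated data. Intervals cover counting error only, since each regime is 1 pooled list. PCR copies of a fragment may count as separate tags, in which case the intervals for tags and tag ratios are too narrow. The sources used here do not give the total tags of each list. All 51 genes matched the RefSeq gene table of assembly TAIR10.1, from which names alone were taken.

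The members and lists were chosen with earlier results of these data known. Genes were put by hand into 11 groups by what they move, from their description and symbol, with the scores already seen. Molybdate was counted with metals and nucleotide sugars with nucleotides. The families were found by symbol, and genes of another kind with a like symbol were left out after the counts had been seen. Named are the 5 highest LL and 3 highest LD scores of each group, the 6 highest and 6 lowest ratios, the 6 highest genes of a single list, and genes with 2 or more peaks in a list. Other genes were named after their values were seen.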

Additional observations from a re-analysis of the deposited data

How the results depend on the processing

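Each list pools its libraries, and none was left out. No paired analysis was possible because the deposited lists carry no values per library. The planned search for the evening element and the CCA1-binding site in promoters was not run, since no sequence of the genome was used here.

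The counts of genes fall where fewer peaks enter, by construction. With the upper 50% of each list by score, 18 genes had an LL peak, 24 an LD peak and 14 both, with 10 in LD alone. With peak centres between 1000 bp before and 500 bp after the TSS, 18 had an LL peak, 27 an LD peak and 16 both, with 2 in LL alone and 11 in LD alone. With the gene of the annotation column, which drops intergenic peaks, 3 genes were in LL alone. With a wider list of words that adds permeases, proton pumps and efflux proteins, chosen after seeing the data, 8 of 69 genes were in LL alone. With an equal number of peaks taken from each list, also chosen after seeing the data, 7 genes were in LL alone and 12 in LD alone. Ratios of peak scores left 1 pair at or above 1.5 and 3 at or below 1/1.5, and a 2-fold threshold left 0 pairs above and 0 below. With scores or with control tags taken off, 23 of the 29 ratios stayed on their side of 1. In the upper 50% of the lists, 11 family genes had an LD peak, and without leaving out genes of another kind 21 of 440 had an LL peak and 25 an LD peak. Shares of overlapping peaks and of peaks in promoters stayed within the intervals of the values given under each alternative run. Counting overlap without the end base, or leaving out genes whose description names no substrate (7 ABC genes, MSL6 and AT5G15640), moved no count or share past these bounds. Which descriptions name a substrate was settled after the members were seen.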
